A study of Mus musculus with 24 samples.

Results

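C130026I21Rik, A530032D15Rik, A530040E14Rik, Sp100 and Sp140 are 5 neighbouring genes of mouse chromosome 1 that carry, or lie among, sequence of the SP100 family. They were found by symbol among the 17541 genes of the count table, and all 5 were kept by the filter on low counts. The set was chosen by the difference of C130026I21Rik between aged and young control mice in these libraries, so the values of that contrast are given as a description, with no test. A530040E14Rik, at most 0.225 CPM (read counts scaled to library size) in young mice, passed the filter through the aged groups. C130026I21Rik and A530032D15Rik were also not kept when the filter was applied to both young groups alone.

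The samples were inguinal white adipose tissue, a subcutaneous fat depot, of C57BL/6J WT mice that ate a high-fat diet according to the series title. Transcripts were sequenced from their 3′ ends with the QuantSeq kit, in 24 libraries of 1 mouse each. Young CTRL (n = 7, 16 weeks old) was the reference group, and Young BAM15 (n = 6) had the same age. Aged CTRL (n = 6) and Aged BAM15 (n = 5) were 92 weeks old. BAM15 is a small-molecule uncoupler that carries protons across the inner mitochondrial membrane. The labels give the treatments as CTRL and BAM15, and no dose or duration is printed here.

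SP100 is a structural protein of PML nuclear bodies, small spheres in the nucleus that gather SUMO-modified proteins and that are known for their part in interferon responses, viral defence and chromatin. SP110 and SP140 are its relatives and share domains that bind DNA and histones, among them the SAND domain, and SP140 is known mainly from leukocytes, where it restrains inflammatory genes. The mouse locus holds duplicated family sequence, and C130026I21Rik and A530032D15Rik are predicted protein-coding genes of that region.

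Library totals ran from 8.62 to 21.9 M counts. Among the aged mice Aged BAM15 2 and 5 and Aged CTRL 2, and among the young Young CTRL 4, stood apart, with 0.121 to 0.257% of counts in the mitochondrial ribosomal transcript mt-Rnr2 against 0.722 to 2.26% in the other 20. They had 12.0 to 21.4% of counts in mitochondrial genes against 4.82 to 9.27%. All 10 adipocyte markers were measured, at a summed 20278 to 90960 CPM per library. B cell markers ran from 1.84 to 1416 CPM summed over 10 genes, T cell markers from 6.68 to 589 over 10, and skeletal muscle markers from 23.2 to 62027 over 8. Muscle markers were highest in Young BAM15 3 (62027 CPM), Young CTRL 7 (55916), Aged CTRL 1 (21896) and Aged BAM15 1 (9373). In bulk tissue, fewer cells of a type and less RNA per cell cannot be told apart.

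In the GRCm38 assembly with GENCODE M21 gene models, the 5 genes lie within chr1:84992690-85709998, a window in which 9 genes of the count table lie. C130026I21Rik (chr1:84992690-85270566, minus strand) has a long model that spans A530032D15Rik (chr1:85083069-85109853, minus strand) and A530040E14Rik (chr1:85105946-85114035, plus strand). A530040E14Rik is annotated as an antisense transcript and its start overlaps A530032D15Rik on the opposite strand. It is therefore a neighbour and not a protein-coding copy. Sp140 (chr1:85600378-85645037) and Sp100 (chr1:85649988-85709998), both on the plus strand, lie at the other end of the window beside Sp110.

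**Figure D1:**
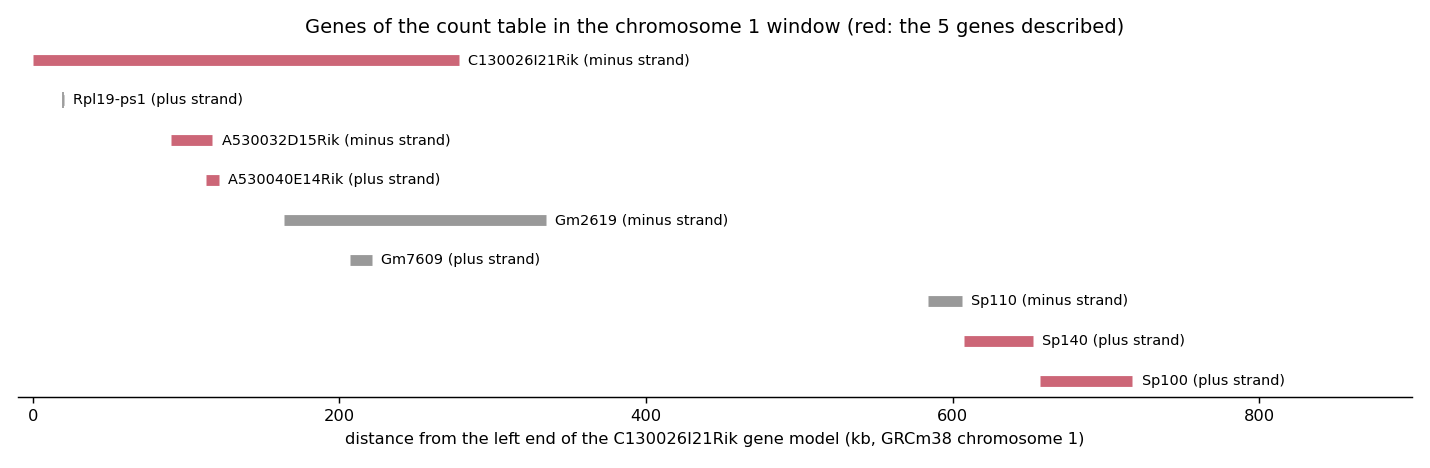
Gene models of the 9 genes of the count table in the chromosome 1 window, with distance in kilobases from the left end of C130026I21Rik on the horizontal axis and 1 gene per line. The 5 genes described are red, and the bar of C130026I21Rik runs over those of A530032D15Rik and A530040E14Rik.

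The sequence just before the start of C130026I21Rik, A530032D15Rik and Sp140 is shown because it is almost the same in the 3 genes, while their levels across the groups differ. The lines give RefSeq promoter sequence of GRCm38.p6, 5′ to 3′ on the strand of the gene and ending at the base before the RefSeq start. A capital marks the aligned base that differs from C130026I21Rik. The ends of the A530032D15Rik and Sp140 lines run past that of C130026I21Rik. Those bases were not compared with it and are in lower case. In GENCODE M21 the stretch of C130026I21Rik lies inside the model of the pseudogene Gm2619, that of A530032D15Rik inside the model of A530040E14Rik, and that of Sp140 inside a longer model of Sp140 itself.
C130026I21Rik, chr1:85270567-85270742, minus strand: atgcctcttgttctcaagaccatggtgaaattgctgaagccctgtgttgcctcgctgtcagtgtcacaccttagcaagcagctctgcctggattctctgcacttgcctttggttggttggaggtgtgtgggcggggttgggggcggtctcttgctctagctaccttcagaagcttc
A530032D15Rik, chr1:85109854-85110038, minus strand: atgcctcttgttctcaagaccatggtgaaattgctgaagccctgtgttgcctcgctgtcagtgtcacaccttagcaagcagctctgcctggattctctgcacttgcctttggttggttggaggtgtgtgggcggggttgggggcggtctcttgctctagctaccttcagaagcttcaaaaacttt
Sp140, chr1:85600489-85600702, plus strand: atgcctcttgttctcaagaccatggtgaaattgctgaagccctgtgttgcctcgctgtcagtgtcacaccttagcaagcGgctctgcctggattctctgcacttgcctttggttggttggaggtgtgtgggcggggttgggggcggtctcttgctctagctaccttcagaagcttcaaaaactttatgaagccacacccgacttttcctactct

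Over the whole 250 bases before the start, C130026I21Rik and A530032D15Rik aligned over 241 columns with 229 matches, 0 mismatches and 1 run of 12 bases that only A530032D15Rik holds. C130026I21Rik and Sp140 aligned over 205 columns with 1 mismatch, 99.5% identity. Sp100 shared no such stretch, its longest identical run with C130026I21Rik being 10 bases. The interferon-stimulated response element, here GAAA, NN and GAAA in a row and searched on both strands, was in 0 of the 6 RefSeq windows of the 5 genes and in 2.98% of 32851 promoter windows of all genes. The STAT site TTCNNNGAA, also on both strands, was in 0 of the 6 windows and in 7.02% of all. A missing match says only that these letters are not in these 250 bases.

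The 3′ ends, from which the reads come, were compared by exact shared words and not by alignment. Their shares therefore cannot be set against the identities above. Of all 50-base words in the last 300 bases of its transcripts, C130026I21Rik shared 31.5% with other genes, A530032D15Rik 44.5%, A530040E14Rik 48.7%, Sp140 61.2% and Sp100 4.63%. A530032D15Rik shared 26.8% of its words with Sp140 and 20.1% with C130026I21Rik. How the authors' counting treated reads that fit several genes, or strand, is not given in the sources used here, so a count of any of these genes except Sp100 is uncertain where a copy or an overlapping gene has the same sequence. For this reason counts were also added up. The "RIKEN sum" holds C130026I21Rik, A530032D15Rik and A530040E14Rik, and the "locus sum" holds all 9 genes of the window. The RIKEN sum leaves out Sp110 and Sp140, so it still depends on where reads shared with them were placed. Neither sum covers words shared with genes outside the window.

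C130026I21Rik was near the floor of detection in young fat and readily counted in aged fat, with or without BAM15. It measured 15.5, 50.7, 17.9, 19.5 and 48.5 CPM in Aged BAM15 libraries 1 to 5. In Young BAM15 it measured 0.404 CPM at the lowest, 0.711 at the median and 1.39 at the highest. The young libraries of either treatment held 1 to 18 counts of the gene and the aged libraries 187 to 1421. The highest young library thus lay below the lowest aged one.

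Aged BAM15 averaged 30.4 ± 17.6 CPM (SD, n = 5) and Young BAM15 0.795 ± 0.408 (SD, n = 6). The log2 difference was 5.22 ± 0.55 (SE), a 37.3-fold higher level in aged mice (adjusted p = 1.65e-05, edgeR quasi-likelihood test with Benjamini-Hochberg adjustment over 15939 genes). These mice did not enter the contrast between control mice that chose the gene. The set was, however, chosen with earlier results of these data known. The gene passed the filter through the aged groups, and the fit took its spread from all 24 libraries, control mice included. With no filter on low counts the adjusted p was 1.62e-05, and in a fit of both BAM15 groups alone it was 0.000943 (edgeR). Without the 4 libraries low in mt-Rnr2 the difference was 4.45 ± 0.47 (adjusted p = 7.15e-05). It was 5.61 with the B cell markers as a covariate and 5.08 with the macrophage markers, and both fits passed the threshold of 0.05.

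In the control mice that led to its choice, C130026I21Rik measured 13.7 CPM at the lowest, 33.7 at the median and 73.9 at the highest in Aged CTRL. Young CTRL ran from 0.0843 over a median of 0.502 to 1.05 CPM. The fitted log2 difference was 6.28 ± 0.54 (SE), and the pooled counts were 84.2-fold higher (95% exact counting interval 62.4 to 117, which covers counting error only).

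Aged libraries differed among themselves. The 3 aged libraries low in mt-Rnr2 had 48.5 to 73.9 CPM of C130026I21Rik and the other 8 had 13.7 to 47.5, so the highest aged values were all in libraries that stood apart. The lowest value of each aged group, 13.7 CPM in Aged CTRL 1 and 15.5 in Aged BAM15 1, was in the library of that group with the most muscle markers. The part of either in the spread was not tested.

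**Figure D2:**
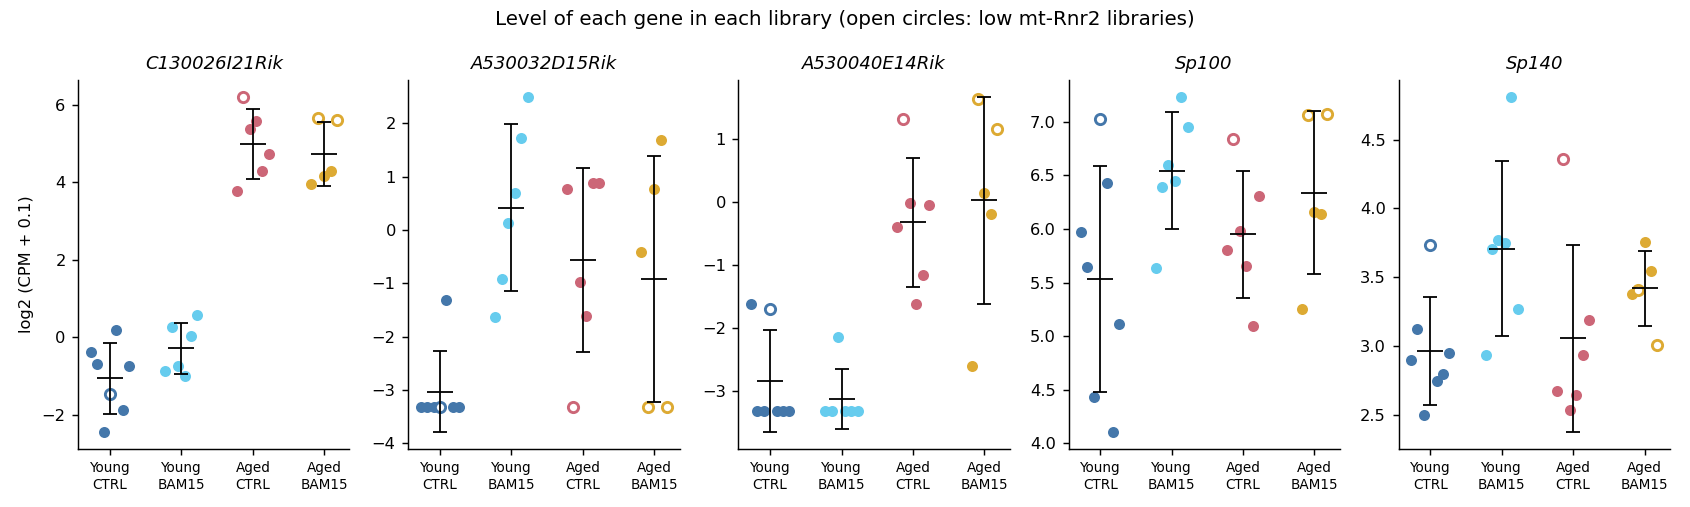
Level of each of the 5 genes in each library, as log2 (CPM + 0.1) on the vertical axis, with 1 point per mouse, the group mean and the SD, and open circles for the libraries low in mt-Rnr2. C130026I21Rik separates all 11 aged from all 13 young libraries, whereas Sp100 and Sp140 overlap in all 4 groups.

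No difference of C130026I21Rik between BAM15 and CTRL passed the test at either age. Aged BAM15 minus Aged CTRL was -0.28 ± 0.46 (SE) on the log2 scale, with a 95% interval of -1.25 to 0.69 (adjusted p = 0.896, edgeR). Young BAM15 minus Young CTRL was 0.78 ± 0.50, with an interval of -0.27 to 1.83 (adjusted p = 0.519). In order of mean level the groups were Young CTRL, Young BAM15, Aged BAM15 and Aged CTRL, and only the step between the young and the aged groups had ranges that did not overlap.

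A530032D15Rik, the predicted gene that lies inside the C130026I21Rik model, had a different pattern, with its highest values in young mice given BAM15. It was counted in all 6 Young BAM15 libraries, from 0.222 CPM over a median of 1.26 to 5.58. In Young CTRL 6 of 7 libraries had 0 counts and Young CTRL 5 had 0.300 CPM. A count of 0 allows up to 0.156 to 0.376 CPM, depending on the library. The ranges of both young groups overlapped through Young BAM15 1 at 0.222 CPM.

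Pooled counts of A530032D15Rik were 140 in Young BAM15 and 4 in Young CTRL, a ratio of 45.4 (95% exact counting interval 17.3 to 169, counting error only). The log2 difference was 5.25 ± 1.33 (SE), which did not pass the adjustment over all genes (adjusted p = 0.179, edgeR). B cell markers moved with it in some libraries and not in others. Their summed level, with 10 of 10 genes measured and none at 0 throughout a group, was 310 to 1416 CPM in Young BAM15 libraries 2 to 6 and 2.74 in Young BAM15 1, the library with the least A530032D15Rik of that group. In Young CTRL it was 375 and 392 CPM in libraries 1 and 5 and 2.70 to 7.93 in the others. T cell markers moved in the same way, with 95.8 to 589 CPM in Young BAM15 2 to 6 and 6.88 in Young BAM15 1. With the B cell markers as a covariate the difference was 3.79 ± 1.30 (adjusted p = 0.538). Young CTRL 1, with 375 CPM of B cell markers, had 0 counts of A530032D15Rik, and Young BAM15 2, with 539, had 0.428 CPM. Young BAM15 5, with 1416, had 3.23 CPM, below the 5.58 of Young BAM15 6, with 880. The part of lymphocytes in the A530032D15Rik difference was not tested.

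In aged mice A530032D15Rik was at 0 in the 3 libraries low in mt-Rnr2, where C130026I21Rik and A530040E14Rik were at their highest, and at 0.226 to 3.11 CPM in the other 8. It measured 0.649, 0, 1.61, 3.11 and 0 CPM in Aged BAM15 libraries 1 to 5. In Aged CTRL it ran from 0 over a median of 1.01 to 1.74 CPM. Aged BAM15 minus Young BAM15 was -0.91 ± 1.2 (adjusted p = 0.699, edgeR), and Aged BAM15 minus Aged CTRL was 0.16 ± 1.17 (adjusted p = 0.986). Aged CTRL minus Young CTRL, the contrast of the choice, was 4.19 ± 1.30.

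**Figure D3:**
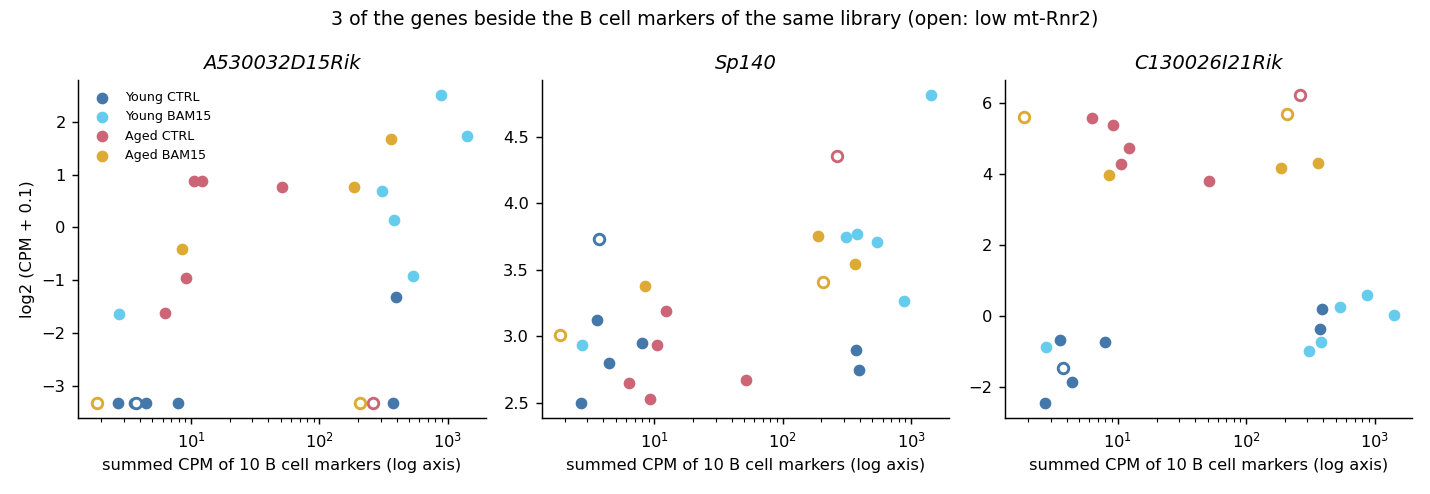
A530032D15Rik, Sp140 and C130026I21Rik as log2 (CPM + 0.1) on the vertical axes against the summed CPM of 10 B cell markers in the same library on log horizontal axes, with 1 point per mouse and open circles for libraries low in mt-Rnr2. The Young BAM15 libraries, at 2.74 to 1416 CPM of B cell markers, hold the highest value of A530032D15Rik and of Sp140, whereas C130026I21Rik divides the mice by age.

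A530040E14Rik, the antisense transcript, was counted in every aged library and hardly in young ones. It measured 0.0649, 3.03, 1.01, 0.777 and 2.13 CPM in Aged BAM15 libraries 1 to 5, which is 1 to 44 counts. In Young BAM15 5 of 6 libraries had 0 counts and Young BAM15 3 had 1 count, 0.125 CPM. The lowest aged library, with 1 count, thus lay below the highest young one.

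Aged BAM15 minus Young BAM15 was 5.85 ± 1.25 (SE) on the log2 scale for A530040E14Rik (adjusted p = 0.0316, edgeR). Since the gene passed the filter through its high groups, the filter favoured a difference in this direction, and with no filter the adjusted p was 0.0478. The size of this fold rests on 1 young count, and the ratio of pooled counts, 103, had a 95% exact counting interval of 18.1 to 4099. Left out in turn, each Young BAM15 library, and also Aged BAM15 2 or Aged BAM15 5, ended the call, with adjusted p-values up to 0.115. It also ended without the libraries low in mt-Rnr2 (4.67 ± 1.32, adjusted p = 0.303), and the 3 aged ones had 2.13 to 3.03 CPM against 0.0649 to 1.01 in the other 8.

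In control mice A530040E14Rik ran from 0.226 over a median of 0.763 to 2.39 CPM in Aged CTRL. In Young CTRL 5 of 7 libraries had 0 counts and the highest had 0.225 CPM. The fitted difference of this contrast was 3.57 ± 0.98. BAM15 minus CTRL was 0.63 ± 0.93 in aged mice (adjusted p = 0.880) and -1.65 ± 1.21 in young mice (adjusted p = 0.581, edgeR).

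Sp100, the nuclear body component itself, had 197 to 2502 counts per library, and its difference by age was within the spread between mice. It measured 38.1, 134, 71.5, 70.3 and 135 CPM in Aged BAM15 libraries 1 to 5. Young BAM15 ran from 49.7 over a median of 91.9 to 151 CPM. Aged BAM15 minus Young BAM15 was -0.14 ± 0.44 (SE), with a 95% interval of -1.04 to 0.77 (adjusted p = 0.886, edgeR). Both groups overlapped over most of their range.

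Young CTRL ran from 17.1 over a median of 49.8 to 130 CPM of Sp100, and Aged CTRL from 34.1 over 59.5 to 115. Young BAM15 holds no library low in mt-Rnr2, and in each other group the highest value was in such a library. The 3 aged ones had 115 to 135 CPM and the other 8 aged libraries 34.1 to 79.2. BAM15 minus CTRL was 0.78 ± 0.40 in young mice (adjusted p = 0.405), 1.11 ± 0.34 without those libraries (adjusted p = 0.126) and 0.38 ± 0.45 with the B cell covariate (adjusted p = 1.0). In aged mice it was 0.44 ± 0.43 (adjusted p = 0.808).

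Sp140, the leukocyte member of the family, also had no difference by age that passed the test. It measured 10.3, 10.53, 13.4, 11.6 and 7.95 CPM in Aged BAM15 libraries 1 to 5. Young BAM15 ran from 7.55 over 13.2 to 28.0 CPM, Young CTRL from 5.56 over 7.36 to 13.2, and Aged CTRL from 5.69 over 6.92 to 20.4. All 4 ranges overlapped. Aged BAM15 minus Young BAM15 was -0.40 ± 0.34 (SE), with a 95% interval of -1.11 to 0.32 (adjusted p = 0.551, edgeR).

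Young BAM15 minus Young CTRL was 0.83 ± 0.31 for Sp140, which did not pass (adjusted p = 0.284, edgeR). The highest Sp140 value of all, 28.0 CPM in Young BAM15 5, was in the library with the most B cell markers, 1416 CPM summed. With those markers as a covariate the difference was 0.35 ± 0.36 (adjusted p = 1.0). The part of B cells in it was not tested further. Sp110, between Sp140 and the RIKEN genes and known in mice for resistance to intracellular bacteria, had 19.9 ± 13.8 CPM (SD, n = 6) in Young BAM15 and 8.26 ± 5.65 (SD, n = 7) in Young CTRL, a log2 difference of 1.27 ± 0.51 (SE; adjusted p = 0.303). Lymphocyte markers moved with it in the young libraries, and in only some of the aged ones. Sp110 was at 16.8 and 16.0 CPM in Young CTRL 1 and 5, which had 375 and 392 CPM of B cell and 190 and 207 CPM of T cell markers, and at 3.91 to 6.24 in the other Young CTRL libraries, which had 2.70 to 7.93 and 10.8 to 21.2 CPM. It was lowest of Young BAM15 in library 1 (1.78 CPM, with 2.74 and 6.88 CPM of markers) and highest in library 5 (43.0 CPM, with 1416 and 589). Among aged libraries Sp110 was at 12.4 and 18.2 CPM in Aged BAM15 3 and 4, with 187 and 364 CPM of B cell markers. It was at only 4.58 in Aged CTRL 2 and 5.30 in Aged BAM15 2, with 264 and 206 CPM, both libraries low in mt-Rnr2. The part of lymphocytes in the Sp110 difference was not tested.

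In Aged BAM15 minus Young BAM15, C130026I21Rik and A530040E14Rik passed as higher, where 0.427% of all 15939 genes were called, 0.37% higher and 0.0565% lower. Both were kept by the filter through the aged groups, so their number is a description and no measure of the 5 genes against the rest. Aged BAM15 minus Aged CTRL called 0 of 5, where 0% of all genes were called by edgeR and 1450 had an unadjusted p under 0.05, none of them among the 5. Young BAM15 minus Young CTRL called 0 of 5, where also 0% were called, and 2081 genes including A530032D15Rik and Sp140 had an unadjusted p under 0.05. Over all genes DESeq2 called 103 and 162 in these 2 comparisons and limma-voom 966 and 631, among the latter Sp140 in both and Sp100 in young mice. In Aged CTRL minus Young CTRL, which chose the set, 1 of 5 lay past the same threshold, beside 0.207% of all genes (0.151% higher and 0.0565% lower), and nothing is read from that number.

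The difference between the BAM15 effects of aged and young mice, which is also the difference between the age effects with and without BAM15, was called for 0 of 5 genes and for 0% of all. At an unadjusted p under 0.05 there were 809 genes, among them A530032D15Rik at -5.10 ± 1.77 (adjusted p = 0.899, edgeR). DESeq2 called 2 genes and limma-voom 0. For C130026I21Rik this difference was -1.06 ± 0.68, with a 95% interval of -2.49 to 0.37. It holds the control difference for which the gene was chosen, so its size for C130026I21Rik is a description.

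**Figure D4:**
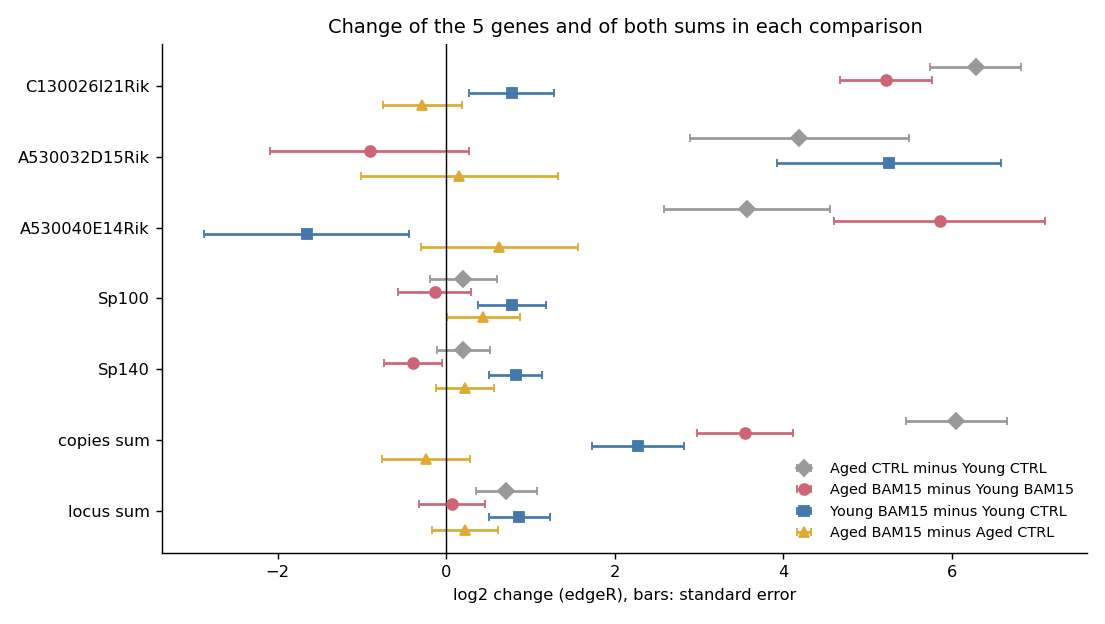
Fitted log2 difference of each gene and of both sums on the horizontal axis, with bars for the standard error, for 4 comparisons, where "copies sum" is the RIKEN sum. C130026I21Rik lies at 5.22 and 6.28 in both age comparisons. In the BAM15 comparisons it lies at -0.28 in aged and 0.78 in young mice, and A530032D15Rik reaches 5.25 in young mice given BAM15.

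The RIKEN sum was also higher in aged mice, where it is mostly C130026I21Rik, so it is no result separate from that gene. Its make-up differed between the groups. Aged BAM15 libraries 1 to 5 measured 16.2, 53.7, 20.5, 23.4 and 50.6 CPM. Young BAM15 ran from 0.666 over a median of 1.77 to 6.97, below every aged library. The fitted difference was 3.54 ± 0.57 (SE; adjusted p = 0.00376, edgeR), 2.85 ± 0.57 without the libraries low in mt-Rnr2 (adjusted p = 0.0471). A two-sided exact permutation test on log2 (CPM + 0.1) gave p = 0.00433, the smallest that its 462 splits of the mice can give, and 0.0175 when adjusted over the 6 such tests made.

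C130026I21Rik made up 83.4 to 99.1% of the counts of the RIKEN sum in aged libraries. In Young BAM15 A530032D15Rik made up 28 to 80%, with a median of 69.7%. Young BAM15 was also above Young CTRL in the sum, by 2.27 ± 0.54 in the fit (adjusted p = 0.179, edgeR) and by 2.03 in the permutation test (exact p = 0.00583, adjusted p = 0.0175), with overlapping ranges. Young CTRL was in the contrast that chose the set, and C130026I21Rik made up a median of 100% of the sum in that group. The permutation p is therefore a description from which no support is drawn. With B cell markers as a covariate the fitted difference was 1.61 ± 0.56 (adjusted p = 0.561).

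**Figure D5:**
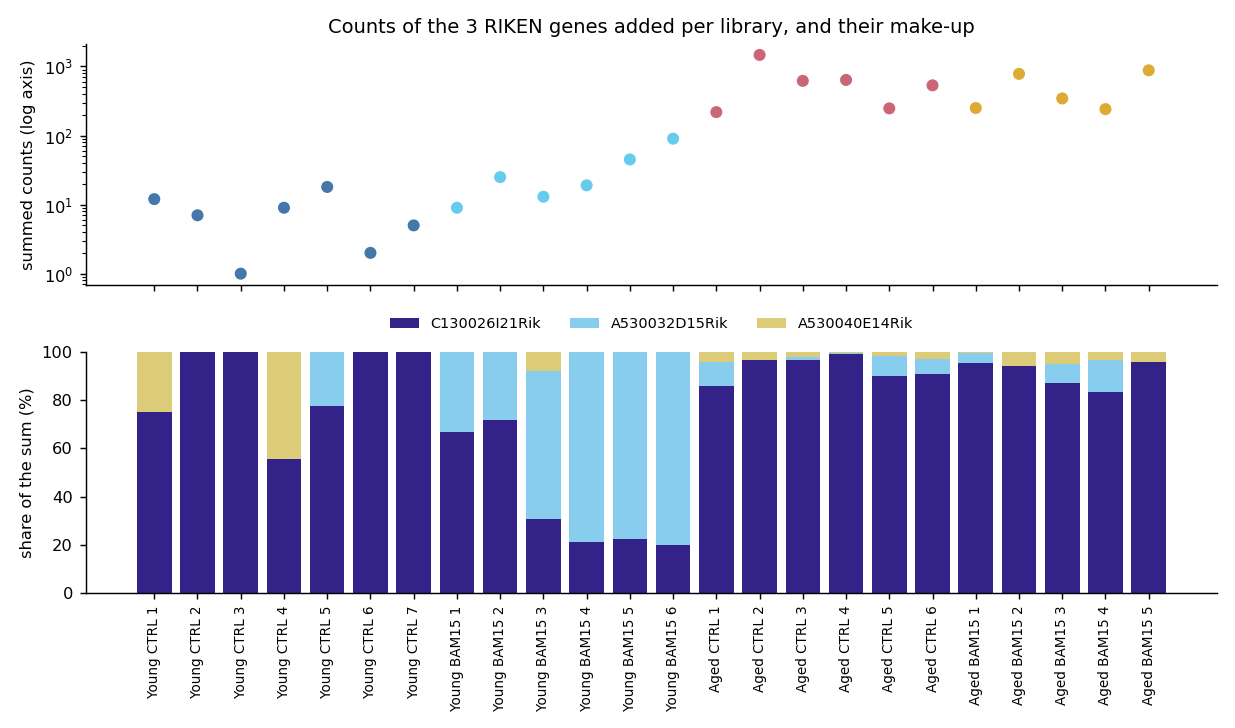
Summed counts of C130026I21Rik, A530032D15Rik and A530040E14Rik in each library on a log axis above, and the share of each gene in that sum in percent below. Aged libraries hold at least 218 counts and are mostly C130026I21Rik, whereas Young BAM15 holds 9 to 90 counts, of which 28 to 80% are A530032D15Rik.

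In the locus sum no age difference passed the test. Sp100 gave 44.8 to 68.3% of its counts in aged and 58.6 to 87.9% in young libraries. C130026I21Rik gave 14.9 to 42.2% in aged libraries and at most 1.08% in young ones. Aged BAM15 libraries 1 to 5 measured 72.7, 205, 119, 125 and 198 CPM and Young BAM15 60.3 over a median of 124 to 227. The difference was 0.07 ± 0.39 (SE; adjusted p = 0.933, edgeR; exact permutation p = 0.805). Young BAM15 minus Young CTRL was 0.87 ± 0.36 (adjusted p = 0.315, edgeR), with an exact permutation p of 0.0443 that became 0.0886 when adjusted.

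Some pseudogenes that overlap these genes or lie beside them were also counted more often in aged mice, and are named here after their values were seen. Rpl19-ps1, a pseudogene of the same window, was not, with 107 counts over the young and 111 over the aged libraries. Gm2619, a transcribed pseudogene whose model overlaps that of C130026I21Rik, had 0 counts in Young CTRL and 78 in Aged CTRL, at least 26.5-fold higher against a floor of 3 counts over the group. In mice given BAM15 it had 3 and 48 counts, a ratio of 15.4 (95% exact counting interval 4.96 to 77.2). The model of Gm7609 lies inside those of Gm2619 and C130026I21Rik, on the opposite strand. Gm7609 had 6 and 37 counts in control mice, a ratio of 6.30 (2.63 to 18.3), and 11 and 26 in mice given BAM15, a ratio of 2.27 (1.08 to 5.09). Gm15433, just outside the window, had 5 and 94, a ratio of 19.2 (7.94 to 60.5), and 0 and 44 counts in mice given BAM15, at least 14.1-fold higher. These ratios compare pooled counts and have no replicate error.

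Genes of PML nuclear bodies and of the interferon response are given as lists beside the shares over all genes, at most 0.427% called in any comparison. At that share 0 calls in lists of this size is no result about the lists. Of 31 genes of PML nuclear bodies, all measured, 0 were called in each of the 5 comparisons by edgeR, and 8 had an unadjusted p under 0.05 in Aged BAM15 minus Young BAM15, beside 2616 of all 15939 genes. Their median log2 difference there was -0.18, against -0.10 over all genes. Pml, the scaffold of the bodies, averaged 24.2 ± 8.43 CPM (SD, n = 5) in Aged BAM15 and 49.8 ± 17.4 (SD, n = 6) in Young BAM15, a difference of -1.04 ± 0.34 (adjusted p = 0.161). Pml also stood at 23.4 ± 10.3 CPM (SD, n = 7) in Young CTRL, and Young BAM15 minus Young CTRL was 1.09 ± 0.30 (adjusted p = 0.188, not passed). Isg20, an interferon-induced exonuclease found in these bodies, had the smallest p of the list at 2.82 ± 0.66 (adjusted p = 0.0571), with 15.6 to 215 CPM in Aged BAM15. Rnf4, a ubiquitin ligase for SUMO-modified proteins, was at 0.79 ± 0.25 (adjusted p = 0.159).

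Of 40 interferon-induced genes, all measured, 0 were called in any of the 5 comparisons by edgeR. In Aged BAM15 minus Young BAM15 11 of 40 had positive differences and the median was -0.36, and 10 had an unadjusted p under 0.05, beside 2616 of all 15939 genes. Young BAM15 minus Young CTRL was positive for 35 of 40 with a median of 0.33, and Aged BAM15 minus Aged CTRL for 11 of 40 with a median of -0.39. Aged CTRL minus Young CTRL was positive for 35 of 40 with a median of 0.55, the opposite sign to the age comparison in mice given BAM15. There 15 had an unadjusted p under 0.05, beside 1343 of all 15939 genes. In each BAM15 comparison 9 of 40 did, beside 2081 of all genes in young and 1450 in aged mice. The medians over all genes were 0.03, 0.02 and -0.04 in these 3, and these comparisons share control mice. Dhx58, a regulator of cytosolic RNA sensing, was at -1.01 ± 0.26 in Aged BAM15 minus Young BAM15 (adjusted p = 0.0995), Ddx58, the RNA sensor RIG-I, at -0.64 ± 0.23 (adjusted p = 0.190), and Ifit1, an RNA-binding antiviral protein, at 1.21 ± 0.45 (adjusted p = 0.212).

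Of 5 other genes with a SAND domain, 4 were measured and 0 were called, again beside at most 0.427% of all genes. Gmeb1, a DNA-binding regulator of glucocorticoid responses, was at -0.64 ± 0.37 in Aged BAM15 minus Young BAM15 (adjusted p = 0.368, edgeR). Deaf1, a transcription factor, was at -0.27 ± 0.21 (adjusted p = 0.498), and Sp110 at -1.2 ± 0.57 (adjusted p = 0.302).

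Within groups, the genes most like C130026I21Rik over the 24 libraries, by Pearson correlation of log2 CPM after each group was centred on its mean, were Zfp40 (r = 0.80), Man2c1, Kcnip3, Maz and Nat10 (r = 0.79 each), of 14227 genes searched. Each of these 5 was higher in all 3 aged libraries low in mt-Rnr2 than in the other 8 aged ones, as Maz with 26.0 to 46.1 CPM against 3.99 to 10.6. Without the low libraries the correlations were 0.72, 0.81, 0.74, 0.74 and 0.70. The genes most like Sp100 were Uba7, which activates the ubiquitin-like protein ISG15 (r = 0.92), Phf12 and Slc16a6 (r = 0.89 each). For Uba7 the correlation without the low libraries was 0.93. These correlations describe shared libraries and depth as well as genes, and carry no test.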

How the data were processed

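The authors deposited raw counts per Ensembl gene, in whole numbers, and signal values, from which 1 factor per library gives the counts back (largest deviation 6.52e-09 counts). Per the submitters' processing notes, R 3.4.3, DESeq2 1.18.1 and the build GRCm38 were used. Aligner, counting program, use of strand and treatment of reads that fit several genes: not given in the sources used here. Rows with a total under 72 counts are not in the table. The symbol of A530040E14Rik came from GENCODE M21 by its identifier. Of the 5 genes, 5 matched the RefSeq promoter table of GRCm38.p6.

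Every result used the raw counts. The filter filterByExpr left 15939 genes and took out 1602, and scaling used TMM factors. All 24 libraries entered 1 model with group as its only term (edgeR 4.0.16, R 4.3.3, robust quasi-likelihood test, 20 residual degrees of freedom). P-values were adjusted by Benjamini-Hochberg over all genes kept and called below 0.05, and the script was tested on simulated data. A standard error is the log2 difference divided by the root of F. CPM were computed with effective library sizes and count 3′ reads, with no correction for length. Each sum replaced its genes by 1 row in the fit. Exact permutation tests of sums used log2 (CPM + 0.1), two-sided. Counting intervals are 95% exact, and their floor is 3 counts. Promoters were aligned locally with Biopython 1.88.

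Libraries ranged from 8.62 to 21.9 M counts. Of 61 pairs of libraries within groups, none agreed within sampling noise (chi-square per gene of at least 19.8). The labels give each mouse its own number, and p-values measure the spread between mice. Alternatives numbered 11 beside 24 fits that left out 1 library each: 2 normalisations, 2 filters, DESeq2 1.42.0, limma-voom 3.58.1 with quality weights, only the groups compared, a replicate block, the fit without libraries under 0.5% mt-Rnr2, and B cell or macrophage markers as covariates. Members and lists were chosen with earlier results of these data known. Named genes are the 5 genes, Sp110, the 3 genes of smallest p per list in Aged BAM15 minus Young BAM15, and the genes most alike over libraries with a mean of at least 1 CPM. Pseudogenes named beside them were added after their values were seen, apart from Rpl19-ps1, which the rule also names and whose 0 to 1.85 CPM overlapped in all groups.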

Additional observations from a re-analysis of the deposited data

Results flagged for a closer look

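In 28 groups of libraries (7 genes or sums in 4 groups) the highest or lowest library was tested for standing apart from the rest of its group, and 7 did. In 3 of them the library was Aged CTRL 2, which is low in mt-Rnr2: it had 20.4 CPM of Sp140 where the next library had 9.01, 2.39 CPM of A530040E14Rik where the next had 0.891, and 216.9 CPM of the locus sum where the next had 125. Young CTRL 4, also low in mt-Rnr2, had 13.18 CPM of Sp140 where the next had 8.62. Young BAM15 5 had 28.02 CPM of Sp140 where the next had 13.5, and it was the library with the most B cell markers, 1416 CPM. The other 2 rest on a few counts: Young CTRL 5 had 0.300 CPM of A530032D15Rik (4 counts) and Young BAM15 3 had 0.1252 CPM of A530040E14Rik (1 count) where every other library of the group was at 0. Any count stands apart in such a group, and the sums hold genes that were also tested alone. The usual rate of about 1 in 20 is therefore no measure for the 7. The part of these library differences in the values was not tested.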

How the results depend on the processing

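C130026I21Rik kept its call in Aged BAM15 minus Young BAM15 in all 11 alternatives (4.41 to 5.61, highest adjusted p 0.000943) and in the 11 fits without 1 library (4.99 to 5.45). The RIKEN sum, mostly C130026I21Rik in aged libraries and so no separate result, did too (2.85 to 4.26 and 3.33 to 4.06, highest adjusted p 0.0471). The count of the 5 genes called there was 1, C130026I21Rik alone, with the stricter filter of 1 CPM in 5 libraries, with DESeq2, in the fit of the compared groups alone, with the replicate block, without the low mt-Rnr2 libraries and with the macrophage covariate, and 1 to 2 without 1 library each. A530040E14Rik was not tested in the first 3 of these, where a filter removed it or DESeq2 gave no adjusted p, and was at 5.69 with the block (adjusted p = 0.201) and 5.71 with the macrophage covariate (adjusted p = 0.0601). With limma-voom the counts were 1 for Aged BAM15 minus Aged CTRL (Sp140, 0.80, adjusted p = 0.0494), 2 for Young BAM15 minus Young CTRL (Sp100 and Sp140, adjusted p = 0.0429 and 0.0425) and 2 for Aged CTRL minus Young CTRL, from which nothing is read because that contrast chose the set. The RIKEN sum passed in Young BAM15 minus Young CTRL with DESeq2 (2.29, adjusted p = 0.00732), and the locus sum with limma-voom (1.05, adjusted p = 0.0329). Young CTRL was in the contrast that chose the set, so no support is drawn from either. The cause was not tested. No result that passed the threshold changed sign. Replicate numbers are shared by the groups but do not pair mice: the median correlation of deviations was -0.04 in 33 same-numbered pairs and 0.00 in 182 others, and 3 of 24 libraries correlated best with their own number. Apart from A530040E14Rik the replicate block changed no call of the 5 genes. The interaction could not be fitted on the compared groups alone. Depth limits the low genes: a count of 0 allows 0.156 to 0.376 CPM.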
